A study of Homo sapiens with 9 samples.

Results

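The transmembrane mucin genes MUC1, MUC4, MUC13 and MUC20 were described across treated and unstimulated T84 cells and Caco-2 cells. They were chosen from their measured log2 signals in these same arrays, and their probe sets were found by matching the RefSeq identifier of each row to the gene symbol. This gave 4 of the 927 genes named on the array and 6 of its 1259 probe sets: 3 for MUC1 and 1 each for MUC4, MUC13 and MUC20. Because every group mean entered that choice, all values of these 4 genes are given as a description, without a test.

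The study addressed which glycosylation genes might contribute to an interferon gamma-dependent, sialylated epitope of a CD44 splice variant on intestinal epithelial cells. T84 is a human colon carcinoma line that was derived from a lung metastasis, and Caco-2 is a human colorectal adenocarcinoma line that can take on enterocyte features in culture. The 3 groups had 3 arrays each: T84 cells given interferon gamma at 100 U/ml for 24 hours, non-stimulated T84 cells at passage 68, and Caco-2 cells at passage 37. The last 2 groups were grown to about 90% confluence in 6-well plates; the sources used here do not give the passage of the treated T84 cells. The labels name no treatment for Caco-2 cells, and no Caco-2 group with interferon gamma was analysed here, so comparisons of treated T84 with Caco-2 cells differ in both line and treatment. Replicates are numbered in the labels without a statement that they came from separate cultures, so the spread between arrays behind every error and p-value may be technical. Each line stands for itself, not for colon epithelium in general.

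Transmembrane mucins are large glycoproteins of the apical cell surface, with an extracellular stretch rich in serine and threonine that carries dense O-linked glycans, a membrane-spanning segment and a short cytoplasmic tail. They add to the glycocalyx above which secreted mucus lies, and several bind growth factor receptors through their extracellular or cytoplasmic parts. MUC1 and MUC4 are found on many epithelia, MUC13 is abundant on the surface of the intestine, and MUC20 is known as a partner of the hepatocyte growth factor receptor MET.

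The bases before the start of 3 of the genes are shown because the groups compared differ in interferon gamma, which changes transcription. The sequences are those of RefSeq for GRCh38.p14, 250 bases that end just before the annotated start, written 5′ to 3′ on the minus strand, on which all 3 genes lie. RefSeq gives MUC1 a pair of starts a few bases apart, of which the upstream one is used here. The windows cover chr1:155192916-155193165 for MUC1, chr3:195811930-195812179 for MUC4 and chr3:124934752-124935001 for MUC13. Capitals mark exact matches, on either strand, to 5 motifs: TTCNNNGAA (the interferon gamma activated site), GAAANNGAA (the core of the interferon-stimulated response element), GGGNNTTCC (an NF-kB site), TATAAA (the TATA box) and GGGCGG (a GC box).
MUC1: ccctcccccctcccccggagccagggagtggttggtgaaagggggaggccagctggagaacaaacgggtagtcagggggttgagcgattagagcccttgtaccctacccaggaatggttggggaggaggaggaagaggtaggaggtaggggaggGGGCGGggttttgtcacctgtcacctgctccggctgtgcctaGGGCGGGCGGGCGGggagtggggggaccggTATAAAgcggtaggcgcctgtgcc
MUC4: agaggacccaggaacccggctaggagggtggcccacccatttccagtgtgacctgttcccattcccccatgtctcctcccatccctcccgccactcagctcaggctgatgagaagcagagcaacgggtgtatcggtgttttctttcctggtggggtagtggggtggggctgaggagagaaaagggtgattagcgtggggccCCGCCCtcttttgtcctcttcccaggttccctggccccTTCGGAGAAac
MUC13: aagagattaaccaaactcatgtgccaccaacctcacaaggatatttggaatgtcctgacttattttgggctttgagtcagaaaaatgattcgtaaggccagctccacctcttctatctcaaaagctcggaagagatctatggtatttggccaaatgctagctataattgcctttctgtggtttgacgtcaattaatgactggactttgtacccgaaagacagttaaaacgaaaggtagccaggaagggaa
In the MUC4 window, TTCGGAGAA matched the interferon gamma activated site at bases -11 to -3 from the start. A match of this kind was present in 6.57% of the 35116 promoter windows of the same length. The MUC4 window also held a GC box on the opposite strand, CCGCCC, at bases -49 to -44. The MUC1 window held TATAAA at bases -24 to -19 and 4 GC boxes at bases -96 to -91, -54 to -49, -50 to -45 and -46 to -41, of which the last 3 overlap. Counted from the other MUC1 start, TATAAA lies at -30 to -25 and the GC boxes at -102 to -97, -60 to -55, -56 to -51 and -52 to -47. A TATAAA match was present in 10.7% and a GC box in 42.6% of all windows. None of the 5 sets of letters occurred in the MUC13 window; GAAANNGAA was present in 6.88% and GGGNNTTCC in 5.78% of all windows, and in none of the 3 shown. The base composition of the 3 windows differed, with a GC content of 66.0% for MUC1, 60.4% for MUC4 and 41.6% for MUC13 against a median of 58.0% over all windows. These matches describe letters only, and no factor binding was measured. The promoter of MUC20 and the proteins of the 4 genes were not analysed here. In the RefSeq gene table MUC4 and MUC20 are neighbouring protein-coding genes on chromosome 3, MUC13 lies elsewhere on chromosome 3, and MUC1 lies on chromosome 1.

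The deposited values were log2 signals that ranged from 2.8 to 14.55, with array medians between 6.7 and 6.8. The files used here give no detection calls, so a low signal cannot be told apart from background, and the number of arrays limits the precision. The interferon-induced genes CXCL9, CXCL10, CXCL11, CD74 and ICAM1 were all higher in treated than in unstimulated T84 cells and past the threshold (5 of 5, limma with Benjamini-Hochberg adjustment over 1259 probe sets, threshold 0.05), as the treatment label says. Of 10 listed colon epithelial markers only LGALS4 was measured, at 12.45 to 12.50 in treated T84, 12.98 to 13.04 in unstimulated T84 and 6.82 to 6.96 in Caco-2 cells, so the labelled cell types could hardly be checked. The mean log2 signal per array of the 4 measured leukocyte markers of 8 listed was 5.55 to 5.61 in treated T84, 5.56 to 5.61 in unstimulated T84 and 5.33 to 5.55 in Caco-2 cells. That of the 5 measured fibroblast or endothelial markers of 7 listed was 4.23 to 4.30, 4.26 to 4.28 and 4.47 to 4.62. None of these 9 markers passed the threshold between treated and unstimulated T84 cells; against Caco-2, CD22 was higher and LUM and PECAM1 were lower in both T84 groups. Their part in the differences from Caco-2 cells was not tested. Replicate 3 of both T84 groups and replicate 1 of Caco-2 deviated from their group means together (correlations over probe sets of 0.56, 0.48 and 0.76), and the differences of the 4 mucin genes, with the list counts that moved, are also given without these 3 arrays.

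In treated T84 cells all 3 MUC1 probe sets, MUC4 and MUC13 had higher signals than in unstimulated T84 cells, and MUC20 had a lower one. The differences were 2.67-fold for MUC4, 2.32- to 2.39-fold for the MUC1 probe sets, 1.32-fold for MUC13 and 0.763-fold for MUC20. The groups did not overlap for any of the 6 probe sets, 5 of which were higher and 1 lower. Over the whole array 27.5% of probe sets had treated and unstimulated arrays that did not overlap, 121 with the treated arrays higher and 225 with them lower; nothing is read from the members' count, because this contrast was among the values that chose them. Unstimulated T84 cells in turn had higher signals than Caco-2 cells for MUC1, MUC13 and MUC20, while MUC4 differed little between these groups.

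**Figure D1:**
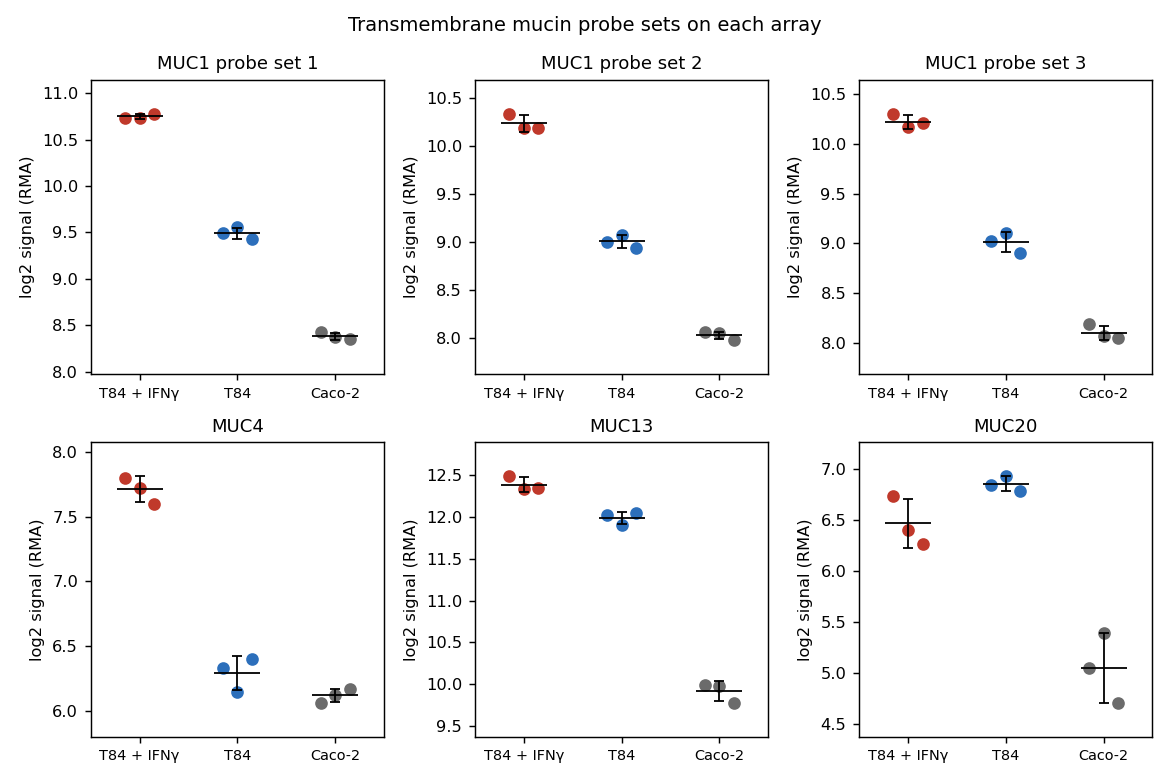
Deposited log2 signal (vertical axis) of each of the 6 member probe sets on each of the 9 arrays, in one panel per probe set with its own scale. Points are single arrays of treated T84 (T84 + IFNγ), unstimulated T84 (T84) and Caco-2 cells, and bars give the group mean with its SD (n = 3); MUC1 steps down from treated T84 to unstimulated T84 to Caco-2, MUC4 stands high in treated T84 alone, and MUC20 is highest in unstimulated T84.

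MUC1 encodes a mucin that is cleaved into a large extracellular and a small membrane-bound subunit, the latter with a signalling tail. Its probe set 1, whose suffix marks it as shared among transcripts of the gene, read 10.73, 10.73 and 10.78 on the treated T84 arrays, 9.49, 9.56 and 9.43 on the unstimulated T84 arrays and 8.43, 8.37 and 8.35 on the Caco-2 arrays. The 3 groups formed 3 separate steps, treated T84 highest and Caco-2 lowest, and no array lay within another group's range. The group means were 10.75 ± 0.03, 9.49 ± 0.06 and 8.38 ± 0.04 (SD, n = 3 each).

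The difference between treated and unstimulated T84 cells at this probe set was 1.26 ± 0.05 (log2, SE of the fit), or 2.39-fold with a range of 2.31 to 2.47 for 1 SE either way. The lowest treated array stood 1.17 above the highest unstimulated array. In size, 0.953% of the probe sets on the array had a larger difference in this contrast. Unstimulated T84 cells in turn exceeded Caco-2 cells by 1.11 ± 0.05, or 2.16-fold, so the step between the lines was of about the same size as the step with interferon gamma. Treated T84 cells exceeded Caco-2 cells by 2.37 ± 0.05, or 5.15-fold.

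MUC1 probe set 2, of a type that can cross-hybridise with other sequences, read 10.34, 10.19 and 10.19 in treated T84, 9.0, 9.08 and 8.94 in unstimulated T84 and 8.06, 8.05 and 7.98 in Caco-2 cells. MUC1 probe set 3, of the same type, read 10.30, 10.17 and 10.21, then 9.02, 9.10 and 8.90, then 8.19, 8.07 and 8.05. Both showed the same 3 steps as probe set 1, with no overlap between groups. Treated T84 cells were higher than unstimulated ones by 1.24 ± 0.06 (2.36-fold) at probe set 2 and by 1.22 ± 0.07 (2.32-fold) at probe set 3. Against Caco-2 cells, unstimulated T84 cells were higher by 0.98 ± 0.06 and 0.90 ± 0.07, and treated T84 cells by 2.21 ± 0.06 and 2.12 ± 0.07.

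The 3 MUC1 probe sets thus gave nearly the same difference with treatment, while against Caco-2 cells probe set 1 gave the highest and probe set 3 the lowest. On each array probe set 1 read 0.32 to 0.59 above probe set 2 and 0.24 to 0.58 above probe set 3. Probe set 2 minus probe set 3 was -0.13 to 0.04 on any array. Their 3 readings come from the same RNA and are not independent measurements of MUC1. The deposited table does not show which MUC1 transcripts each probe set matches.

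MUC4 encodes a very large mucin with domains that resemble epidermal growth factor, and it is known to bind the receptor ERBB2. Its probe set, whose suffix allows for transcripts of more than 1 gene, read 7.80, 7.72 and 7.60 in treated T84, 6.33, 6.14 and 6.40 in unstimulated T84 and 6.06, 6.12 and 6.17 in Caco-2 cells. The treated T84 arrays stood apart from the other 6, and the unstimulated T84 and Caco-2 arrays overlapped. The means were 7.71 ± 0.10, 6.29 ± 0.13 and 6.12 ± 0.05 (SD, n = 3 each).

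Treated T84 cells exceeded unstimulated T84 cells at MUC4 by 1.42 ± 0.08, or 2.67-fold with a range of 2.53 to 2.82 for 1 SE either way, and 0.635% of all probe sets differed by more. The gap between the lowest treated and the highest unstimulated array was 1.20. Against Caco-2 cells, treated T84 cells were higher by 1.59 ± 0.08 (3.01-fold). Unstimulated T84 and Caco-2 cells differed by 0.18 ± 0.08 (1.13-fold), against a pooled SD of 0.10, and 51.8% of all probe sets differed by more between these groups. Leaving out 1 array at a time moved this last value between 0.12 and 0.25, and it was 0.09 without the 3 arrays that deviated together. Both groups without interferon gamma lay below the array medians of 6.7 to 6.8, and how much of their MUC4 signal is background was not measured.

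MUC13 encodes a shorter mucin with epidermal growth factor-like domains that covers intestinal epithelium. Its probe set read 12.48, 12.33 and 12.34 in treated T84, 12.02, 11.90 and 12.04 in unstimulated T84 and 9.99, 9.98 and 9.78 in Caco-2 cells. Both T84 groups lay far above the Caco-2 arrays, and the treated arrays lay just above the unstimulated ones without overlap. The means were 12.38 ± 0.09, 11.98 ± 0.07 and 9.92 ± 0.12 (SD, n = 3 each).

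The difference with interferon gamma at MUC13 was 0.40 ± 0.07, or 1.32-fold with a range of 1.25 to 1.39, and 9.61% of all probe sets differed by more. The arrays were 0.29 apart at the nearest point. The difference between unstimulated T84 and Caco-2 cells was 2.07 ± 0.07, or 4.19-fold, and that between treated T84 and Caco-2 cells 2.47 ± 0.07, or 5.53-fold. In the values as deposited MUC13 thus differed mainly between the lines, where MUC4 differed almost only with the treatment and MUC1 with both. The MUC4 difference between the lines was larger after centring on ribosomal protein probe sets, as given below.

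MUC20 encodes a mucin with a tail that is known to bind MET and to dampen part of its signalling. Its probe set read 6.74, 6.40 and 6.27 in treated T84, 6.85, 6.93 and 6.79 in unstimulated T84 and 5.05, 5.39 and 4.71 in Caco-2 cells. The Caco-2 arrays were lowest and the most spread, and the highest treated array came within 0.06 of the lowest unstimulated one. The means were 6.47 ± 0.24, 6.86 ± 0.07 and 5.05 ± 0.34 (SD, n = 3 each). The treated T84 and Caco-2 readings lay within or below the range of the array medians, 6.7 to 6.8, and the unstimulated T84 readings close to it. How much of the MUC20 signal is background was not measured.

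Treated T84 cells were lower than unstimulated T84 cells at MUC20, with a difference of -0.39 ± 0.18, or 0.763-fold with a range of 0.676 to 0.862; 10.1% of all probe sets differed by more. This was the least separated of the 6 differences with treatment, at a pooled SD of 0.18, and leaving out 1 array at a time moved it between -0.52 and -0.29. Unstimulated T84 cells exceeded Caco-2 cells by 1.80 ± 0.18 (3.49-fold) and treated T84 cells by 1.42 ± 0.18 (2.67-fold). MUC20 was the only one of the 4 genes with its highest group in unstimulated T84 cells.

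**Figure D2:**
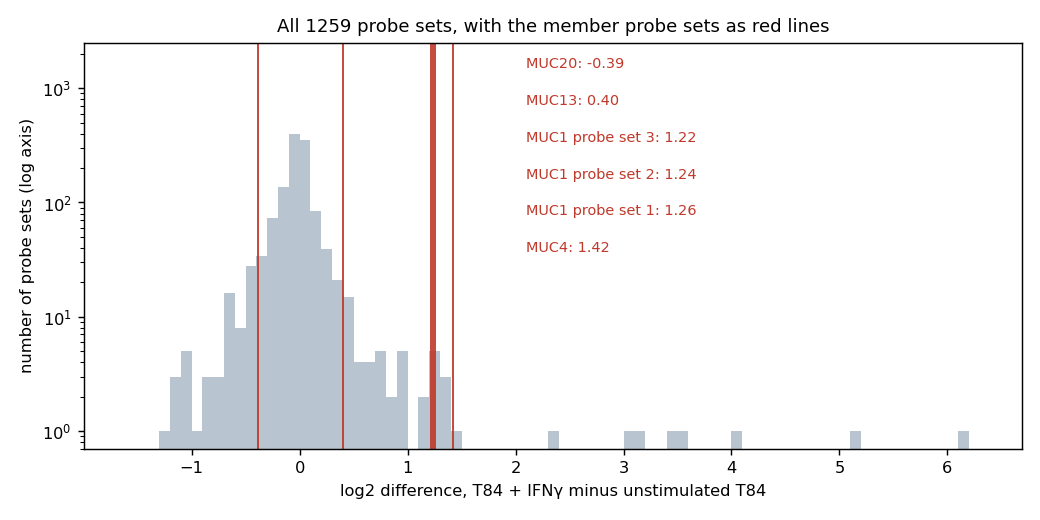
Number of probe sets (vertical axis, log scale) by the difference in log2 signal between treated and unstimulated T84 cells (horizontal axis) for all 1259 probe sets, as grey bars, with a red line for each of the 6 member probe sets. The lines of MUC4 at 1.42 and of the MUC1 probe sets at 1.22 to 1.26 stand in the sparse upper tail, while those of MUC13 at 0.40 and MUC20 at -0.39 lie on either side of the main peak.

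Between treated T84 and Caco-2 cells all 6 probe sets were higher in T84 cells without overlap, where 53.5% of all probe sets did not overlap, and between unstimulated T84 and Caco-2 cells 5 of 6 were, where the share was 49.6%. Nothing is read from these counts either, since the same group means entered the choice. The 3 comparisons share their groups in pairs, so a gene's 3 differences are not independent. Ordered by level, MUC1 and MUC13 ran from treated T84 through unstimulated T84 to Caco-2 cells, and MUC20 from unstimulated T84 through treated T84 to Caco-2 cells. For MUC4 the lower 2 groups, unstimulated T84 and Caco-2, could not be ordered.

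Without the 3 arrays that deviated together, a choice made after seeing the data, the differences between treated and unstimulated T84 cells were 1.21, 1.23 and 1.17 for the MUC1 probe sets, 1.52 for MUC4, 0.45 for MUC13 and -0.32 for MUC20. The differences between unstimulated T84 and Caco-2 cells were then 1.16, 1.02 and 1.00 for MUC1, 2.08 for MUC13 and 1.84 for MUC20. Those between treated T84 and Caco-2 cells were 2.37, 2.25 and 2.17 for MUC1, 1.62 for MUC4, 2.53 for MUC13 and 1.52 for MUC20. Every direction stayed as with all 9 arrays.

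**Figure D3:**
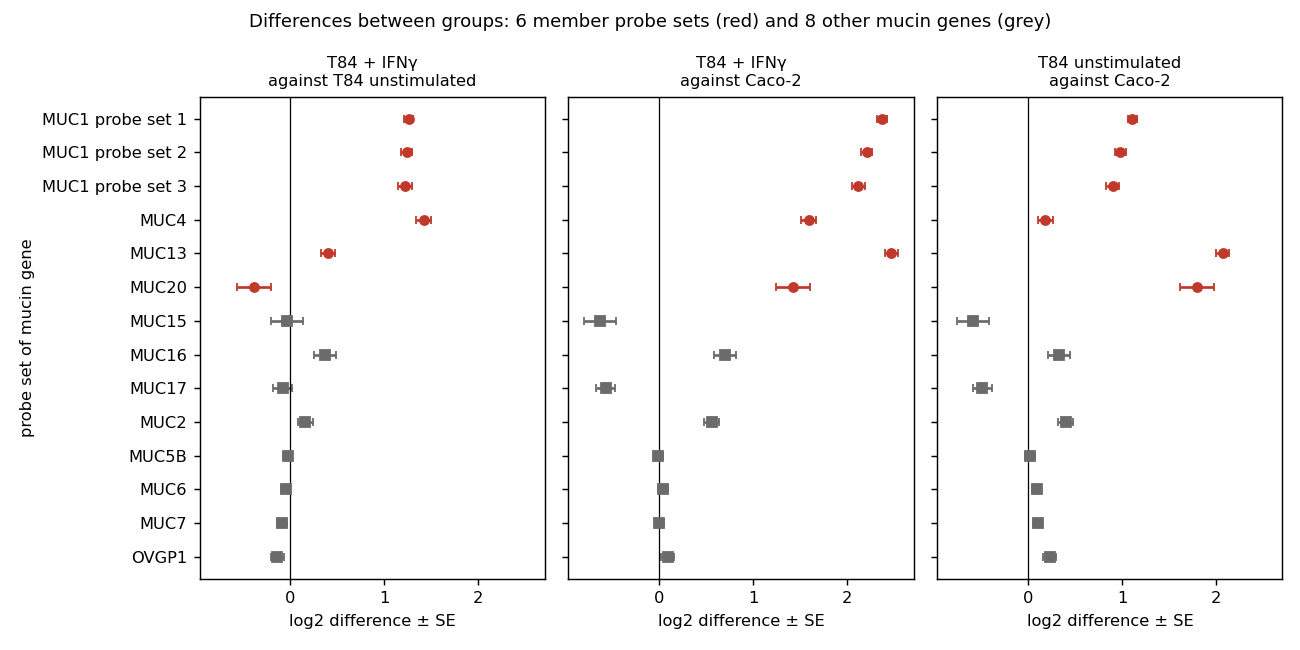
Differences in log2 signal between groups (horizontal axis) for the 6 member probe sets and the 8 other listed mucin genes that were measured. Each comparison has its own panel. Points are differences of group means and bars their SE from the fit over 9 arrays; for treated against unstimulated T84, MUC4 and the MUC1 probe sets lie between 1.22 and 1.42, while MUC16, at 0.37, is the highest of the other mucins.

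Other mucins were taken from a list of 15. Mucin-like genes outside it, such as EMCN and CD164, were not counted, and 216 probe sets matched no gene symbol. The 8 measured were the secreted MUC2, MUC5B, MUC6 and MUC7, the transmembrane MUC15, MUC16 and MUC17, and OVGP1, a secreted mucin-like oviductal glycoprotein. None of them was higher or lower in treated than in unstimulated T84 cells past the threshold (limma, Benjamini-Hochberg), where 10.2% of all probe sets were called, and 1 of 8 had an unadjusted p under 0.05. Their median difference was -0.04, against -0.01 over all probe sets. That 1 gene was MUC16, a large transmembrane mucin of several epithelia. It read 6.98, 6.66 and 6.53 in treated T84, 6.30, 6.37 and 6.39 in unstimulated T84 and 6.20, 5.97 and 5.92 in Caco-2 cells, a treated minus unstimulated difference of 0.37 ± 0.12 with an adjusted p of 0.107 by limma. The treated arrays were all above the unstimulated ones, and with array weights the difference was 0.33 with a limma adjusted p of 0.0288. MUC17, a mucin of the enterocyte brush border, differed by -0.08 ± 0.10 between treated and unstimulated T84 cells, and MUC2, the main secreted mucin of the colon, by 0.16 ± 0.08; neither passed the threshold (limma).

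Against Caco-2 cells, 45.6% of all probe sets were called for treated T84 and 43.7% for unstimulated T84 cells. Of the 8 other mucins, treated T84 cells had 2 higher and 2 lower (median 0.02, against 0.02 over all probe sets), and unstimulated T84 cells had 2 higher and 2 lower (median 0.10, against 0.02). MUC2 was higher in both T84 groups, by 0.56 ± 0.08 in treated cells (limma adjusted p = 0.000303) and by 0.40 ± 0.08 in unstimulated cells (0.00248). MUC16 was higher in treated T84 cells by 0.70 ± 0.12 (0.00121), and the unstimulated value of 0.33 ± 0.12 did not pass (0.0523), though it passed under 12 alternatives, with adjusted p from 0.000887 to 0.0474 (the replicate number as a block). OVGP1 was higher in unstimulated T84 cells by 0.23 ± 0.07 (limma adjusted p = 0.0222), which was lost without unstimulated T84 replicate 2 (0.0659) or 3 (0.067) or Caco-2 replicate 3 (0.0731), without the 3 arrays that deviated together (0.0769), with the compared groups fitted alone (0.0626) and with the replicate number as a block (0.0532).

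The transmembrane mucins MUC17 and MUC15 had the opposite direction from MUC1, MUC13 and MUC20. MUC17 read 5.27 to 6.15 and MUC15 4.39 to 5.35 over the 9 arrays, all below the array medians of 6.7 to 6.8. How much of these signals is background was not measured. Against Caco-2 cells MUC17 was lower in treated T84 cells (difference -0.57 ± 0.10, limma adjusted p = 0.00159) and lower in unstimulated T84 cells (-0.49 ± 0.10, 0.00404). MUC15 was lower in treated T84 cells (-0.63 ± 0.17, 0.0153) and in unstimulated T84 cells (-0.59 ± 0.17, 0.0221). The treated MUC15 call was lost without treated T84 replicate 1 (limma adjusted p = 0.0509) or Caco-2 replicate 2 or 3 (0.0553 each). The unstimulated MUC15 call was lost without unstimulated T84 replicate 1 (0.0745) or 3 (0.0532) or Caco-2 replicate 2 (0.0769) or 3 (0.0782), with the compared groups fitted alone (0.0589) and without moderation (0.0544). Centred on ribosomal protein probe sets, none of these 4 differences of MUC15 and MUC17 passed, and MUC5B, MUC6 and MUC7 were called higher. The split of the other mucins against Caco-2 cells was then 6 higher and 0 lower for each T84 group. Over all 1259 probe sets it was 911 higher and 180 lower for treated and 837 and 195 for unstimulated T84 cells. Without unstimulated T84 replicate 3 or Caco-2 replicate 3, the 4 calls between unstimulated T84 and Caco-2 cells fell to 2.

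O-glycans on mucins are begun by the GALNT enzymes, which add N-acetylgalactosamine to serine or threonine; 18 of 20 listed genes were measured. Between treated and unstimulated T84 cells 0 were higher and 2 were lower, with a median of -0.05 against -0.01 over all probe sets. The share called over all probe sets in this comparison was 10.2%. GALNT11 was lower (difference -0.69 ± 0.12, limma adjusted p = 0.00718) and so was GALNT12 (-0.66 ± 0.11, 0.00749). Without the 3 arrays that deviated together GALNT11 did not pass (-0.60, 0.054). GALNT4 was not called with all arrays (-0.38, limma adjusted p = 0.491) but was called lower without those 3 (-0.48, 0.0246). Against Caco-2 cells 5 were higher and 3 lower in either T84 group (medians 0.10 and 0.18, against 0.02 and 0.02). The share called over all probe sets was 45.6% for treated and 43.7% for unstimulated T84 cells, so nothing is read from the GALNT counts. GALNT11 was lower in treated (-2.40 ± 0.12, limma adjusted p = 6.02e-07) and unstimulated T84 cells (-1.71, 5.98e-06), and so was GALNT2 (-0.92, 8.67e-05, and -0.67, 0.000705). GALNT4 was higher by 1.68 ± 0.23 in treated (0.000344) and 2.06 in unstimulated T84 cells (0.000108). GALNT18 was higher by 0.84 in treated T84 cells (limma adjusted p = 0.00103) and GALNT12 by 1.05 in unstimulated T84 cells (9.58e-05).

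The GALNT counts against Caco-2 cells moved with the arrays and the scaling. Without the 3 arrays that deviated together 7 were higher and 3 lower in treated T84 cells, and 9 and 3 in unstimulated T84 cells. Over all 1259 probe sets the splits without these arrays were 277 and 317, and 267 and 303. GALNT1, GALNT3, GALNT6 and GALNT7 gained calls for unstimulated T84 cells there, and were named after their values were seen. Centred on ribosomal protein probe sets the splits were 15 and 2 for treated and 13 and 2 for unstimulated T84 cells. Over all 1259 probe sets that centring gave 911 and 180, and 837 and 195. Under that centring GALNT16, also named after its values were seen, went from -0.24 (limma adjusted p = 0.00399) to 0.2 (0.0062) between treated T84 and Caco-2 cells.

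Of 13 listed genes that extend or sialylate mucin O-glycans 12 were measured. In treated T84 cells 1 was higher and 1 lower than in unstimulated T84 cells (median 0.06 against -0.01), where 10.2% of all probe sets were called. ST6GALNAC2, which adds sialic acid to N-acetylgalactosamine, was higher by 1.24 ± 0.12 (limma adjusted p = 0.000405), and ST6GALNAC1, an enzyme of the same family that makes the sialyl-Tn structure, was lower (-0.43 ± 0.05, 0.000916). Against Caco-2 cells 5 were higher and 4 lower in each T84 group (medians 0.02 and -0.07, against 0.02 and 0.02). The share called over all probe sets was 45.6% for treated and 43.7% for unstimulated T84 cells. Without the 3 arrays that deviated together the counts of this list were 5 and 5. Over all 1259 probe sets the splits without these arrays were 277 and 317 for treated and 267 and 303 for unstimulated T84 cells. ST6GALNAC1, lower with treatment, was far higher in T84 than in Caco-2 cells, by 3.93 in treated (limma adjusted p = 1.6e-10) and 4.36 in unstimulated T84 cells (9.95e-11). GCNT3, the mucin-type enzyme that makes branched O-glycan cores, was higher by 2.02 ± 0.13 in treated T84 cells (3.06e-06) and 1.98 in unstimulated T84 cells (4.61e-06). ST3GAL1, which sialylates unbranched cores, was lower (-1.42, 4.98e-06, and -1.33, 8.99e-06), and so was ST6GALNAC3, another sialyltransferase of O-glycans (-2.96, 1.63e-05, and -3.09, 1.54e-05). These lists show which enzymes of mucin glycosylation differed beside the mucins; whether the glycans on the 4 mucins differed was not measured.

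Of 13 listed genes whose products are known to bind transmembrane mucins, 7 were measured. In treated T84 cells 1 was higher and 1 lower than in unstimulated T84 cells, with a median of 0.03 against -0.01. In this comparison 10.2% of all probe sets were called. ICAM1, an adhesion molecule that MUC1 can bind, was higher by 3.17 ± 0.15 (limma adjusted p = 3.98e-06). ERBB3, a receptor of the family that MUC1 and MUC4 can bind, was lower at its brighter probe set (-0.82 ± 0.10, 0.00112), while its other probe set had means of 7.84 and 7.96. The brighter ERBB3 probe set was higher in unstimulated T84 than in Caco-2 cells by 1.01 (limma adjusted p = 5.05e-05). MET, the partner of MUC20, differed by 0.17 ± 0.22 with treatment (0.806) but was higher than in Caco-2 cells by 1.35 ± 0.22 in treated (0.00103) and 1.18 in unstimulated T84 cells (0.00241). LGALS3, a galectin that binds MUC1, was higher than in Caco-2 cells by 0.51 (5.26e-05) and 0.61 (2.11e-05). Of all probe sets 45.6% were called between treated T84 and Caco-2 cells and 43.7% between unstimulated T84 and Caco-2 cells. Against Caco-2 cells, treated T84 cells had 3 partners higher and 0 lower (median 0.18 against 0.02). Unstimulated T84 cells had 3 higher and 1 lower (median 0.04 against 0.02). The 1 lower was ICAM1 (-0.62, 0.00955), which was higher in treated T84 than in Caco-2 cells by 2.54 (1.83e-06). Centred on ribosomal protein probe sets, the partner splits against Caco-2 cells were 7 higher and 0 lower for treated and 6 and 0 for unstimulated T84 cells. Over all 1259 probe sets that centring gave 911 higher and 180 lower, and 837 and 195, so nothing is read from these splits.

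Across the 9 arrays MUC1 probe set 1 correlated with MUC4 at r = 0.92, with MUC13 at 0.91 and with MUC20 at 0.70, and over the 6 T84 arrays at 0.98, 0.93 and -0.80. MUC13 and MUC4 correlated at 0.70 over 9 arrays and at 0.98 over the T84 arrays. MUC20 correlated with MUC13 at 0.92 and with MUC4 at 0.39 over 9 arrays, and at -0.67 and -0.77 over the T84 arrays. These are descriptions: the arrays fall into 3 groups, so r follows the order of the group means, and all genes of an array share its RNA and its normalization.

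The genes whose signals ran most like each mucin were taken as the 3 with the highest Pearson r over the 9 arrays. For MUC1 they were the chemokine genes CCL3 (0.993), CX3CL1 (0.987) and CXCL10 (0.984). The CCL3 probe set, like that of TNFSF13B below, has the suffix that allows for transcripts of more than 1 gene. CCL3 was higher by 1.35 in treated than in unstimulated T84 cells and by 1.32 in unstimulated T84 than in Caco-2 cells, steps much like those of MUC1. For MUC4 they were the interferon-induced chemokine gene CXCL9 (0.992), TNFSF13B, which encodes the B-cell factor BAFF (0.988), and CXCL10 (0.972). CXCL9 shared the shape of MUC4, with a difference of 6.12 with treatment and 0.06 between unstimulated T84 and Caco-2 cells, at a much larger size.

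For MUC13 the nearest were LGALS9, a galectin gene (0.997), a JUNB probe set of the type that can cross-hybridise (0.995) and the sulfotransferase gene CHST7 (0.992). LGALS9 differed by 0.44 with treatment and by 2.05 between unstimulated T84 and Caco-2 cells, close to the values of MUC13. For MUC20 they were the receptor gene TGFBR2 (0.990), the Notch ligand gene JAG1 (0.980) and the ribosomal protein gene RPL39 (0.977). TGFBR2 differed by -0.23 with treatment and by 1.25 between unstimulated T84 and Caco-2 cells. The JAG1 and RPL39 probe sets have the suffix that allows for transcripts of more than 1 gene. With 3 groups of 3 arrays many genes reach a high r, and no p is given.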

How the data were processed

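RNA of 9 samples was measured on single-colour arrays, 1 array a sample. The authors deposited log2 signals, made by RMA per the submitters' processing notes; its version, the genome build of the probe sets and any filter: not given in the sources used here. They were used as deposited. RMA equalises array distributions, so a change shared by most genes would not be seen. Of 1259 probe sets, 1043 matched 1 gene symbol through a RefSeq table and 216 none. A listed gene stands by whichever of its probe sets had the highest mean over the arrays.

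A linear model with 1 coefficient per group was fitted in R 4.3.3 with limma 3.58.1 on the 9 arrays together (6 residual and 2.12 prior degrees of freedom). Two-sided p-values were Benjamini-Hochberg adjusted over 1259 probe sets, with a threshold of 0.05. The calls, higher and lower, numbered 55 and 73 for treated against unstimulated T84, 244 and 330 for treated T84 against Caco-2, and 245 and 305 for unstimulated T84 against Caco-2. Centred on 51 ribosomal protein probe sets, the splits were 289 and 52, 911 and 180, and 837 and 195. The genes and lists were chosen with earlier results of these data known. Named genes are all 6 member probe sets, of each list up to 4 called genes per comparison by adjusted p, any measured other mucin, and the 3 nearest patterns of each member. The fit was tested on simulated data. Alternatives were the groups compared alone, the replicate number as a block, array weights, no moderation or moderation with a trend, quantile normalization, median or ribosomal centring, dropping 315 dim probe sets, the mean of a gene's probe sets, and leaving out arrays.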

Additional observations from a re-analysis of the deposited data

How the results depend on the processing

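No member difference changed direction under any alternative run. Centring on ribosomal protein probe sets moved the median of all probe sets to 0.14, 0.46 and 0.31 (treated against unstimulated T84, treated T84 against Caco-2, unstimulated T84 against Caco-2), from -0.01, 0.02 and 0.02. The calls over all probe sets became 341, 1091 and 1032. In the same order of comparisons MUC1 became 1.41, 2.81 and 1.4 at probe set 1, 1.39, 2.65 and 1.27 at probe set 2 and 1.37, 2.56 and 1.2 at probe set 3. MUC4 became 1.57, 2.03 and 0.47, and MUC13 0.55, 2.91 and 2.36. MUC20 became 1.86 and 2.1 against Caco-2, and its negative difference between treated and unstimulated T84 became smaller in size. Under this centring 5, 17 and 15 GALNT genes, 2 other mucins (treated against unstimulated T84) and 4 and 7 partner genes (treated T84 against unstimulated T84 and Caco-2) were called, and ICAM1 was no longer called between unstimulated T84 and Caco-2 (limma adjusted p = 0.0568). Array weights raised the calls between treated and unstimulated T84 from 128 to 231. Quantile normalization gave 1.17 and 2.28 for MUC1 probe set 1 (treated T84 against unstimulated T84 and Caco-2). Without the 3 arrays that deviated together, an alternative added after seeing the data, MUC1 probe set 3 gave 1.00 between unstimulated T84 and Caco-2. Leaving out 1 array at a time gave 2 to 6 called other mucins between unstimulated T84 and Caco-2. With the replicate number as a block, calls over all probe sets were 109, 534 and 499. Deviations of equally numbered T84 arrays correlated at 0.39, -0.02 and 0.56, not every array correlated best with its own number, and the numbers were not taken to pair the arrays. Centring subtracts 1 value per array, so it moves the difference of every probe set in a comparison by the same amount. Why the ribosomal protein probe sets differed between groups, and the causes of the other changes, were not tested. The files give no measure of background, so low signals, such as MUC4 in unstimulated T84 and MUC20 in Caco-2 cells, cannot be told apart from it.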

Other observations

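Among the 1259 probe sets, 559 held a value that was repeated exactly, as deposited, on at least 2 arrays, and for 439 of them the repeat lay in different groups. None of the 6 probe sets of MUC1, MUC4, MUC13 and MUC20 held such a repeat. Of the other mucins, MUC7 had the same value on 4 arrays, and MUC5B and OVGP1 each had it on 3. The source of the repeats was not tested.

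Over the 6 T84 arrays alone, the genes with the highest r differed in part from those over 9 arrays. For MUC4 they were the chemokine gene CCL5 (0.998), ICAM1 (0.996) and CXCL10 (0.996), and for MUC1 they were HK1, CD74 and CX3CL1 (0.995 each). For MUC13 they were MUC4 (0.976), the proteasome activator gene PSME1 (0.974) and the fucosyltransferase gene FUT4 (0.971). For MUC20 they were ATRN (0.992), UXS1, an enzyme of UDP-xylose synthesis (0.982), and the splicing factor gene PRPF8 (0.977). These values are descriptions over 2 groups of 3 arrays. The CD74, MUC4 and PRPF8 probe sets have the suffix that allows for transcripts of more than 1 gene.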
